A study of Homo sapiens with 3 samples.

Results

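The 10 genes described here code for antioxidant and detoxifying proteins of the kind controlled by the transcription factor NRF2: NQO1, GCLC, GCLM, TXNRD1, SRXN1, PIR, AKR1C1, AKR1C2, AKR1C3 and AKR1B10. They were chosen by name, with earlier results of these data known. Counts of them set beside shares of all genes are therefore description and not tests. All 10 were found among the 35851 rows of the expression table. Poly(A) RNA had been sequenced from 5637 cells, an established human bladder cancer cell line labelled WT, after transfection with siRNA. The first group received a control siRNA (siNC, 1 library) and the other an siRNA directed at MYBL2 (2 libraries, siMYBL2-1 and siMYBL2-2). MYBL2 is a MYB family transcription factor, and the comparison asks which transcripts differ when it is depleted. It is not stated in the labels if -1 and -2 denote distinct siRNAs or repeats, or if the cells were cultured separately, so p-values measure only the spread between these libraries, which may be technical.

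NRF2, encoded by NFE2L2, is held at a low level by KEAP1, an adaptor that presents it to a CUL3 ubiquitin ligase for degradation. When electrophiles or oxidants modify KEAP1, or when either gene is mutated in a tumour, NRF2 accumulates, pairs with a small MAF protein and binds antioxidant response elements near its target genes. The targets make glutathione, reduce thioredoxin and quinones, and reduce carbonyl groups of steroids and lipid aldehydes, and the aldo-keto reductases are widely used as readouts of NRF2 activity in human epithelial tumours.

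Between 40259436 and 46177658 reads per library had been assigned to rows. Levels are given in RPKM, reads scaled to exonic length and to the assigned reads of the library, so that genes can be compared per length. Where 3 values stand together without library names, their order is siNC, siMYBL2-1, siMYBL2-2. Mitochondrially encoded genes took 7.25%, 7.24% and 6.04% of the reads. MYBL2 itself stood at 211, 46.0 and 56.3 RPKM. All 9 epithelial and urothelial markers examined, EPCAM and CDH1 among them, had a mean above 1 RPKM, and their summed level was 2177, 2472 and 1906 RPKM. Of the 5 immune, 3 endothelial and 5 fibroblast markers, CD68 (3.43 to 5.34 RPKM) and COL1A1 (1.31 to 2.03 RPKM) exceeded 1 RPKM, and the summed level of each list was at most 5.49, 0.109 and 2.04 RPKM in any library. No listed marker was at 0 in all 3 libraries, and the part of such RNA in the differences below was not tested. In RNA from whole cultures, fewer cells that make a transcript and less of it per cell cannot be told apart.

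Of the 10 genes, 8 were lower in both siMYBL2 libraries than in siNC, 1 (SRXN1) was higher in both and 1 (TXNRD1) went in opposite directions, or was higher in both once the median ratio of all genes was scaled to 1. Of the 13274 genes averaging 1 RPKM or more, 36.4% were lower in both and 29.7% higher in both. Both ratios share the single siNC library, so a deviation of that library moves them the same way. The aldo-keto reductases had the lowest ratios to siNC in siMYBL2-2, and PIR stood near them in siMYBL2-1 alone of the siMYBL2 libraries. NQO1 was lower in both libraries, whereas the glutathione and thioredoxin genes GCLC, GCLM and TXNRD1 lay closer to siNC. The median log2 difference of all 10 from siNC was -0.23 in siMYBL2-1 and -0.14 in siMYBL2-2 on the log2(RPKM + 1) scale, against -0.04 and -0.01 over the 13274 genes. As plain ratios of RPKM the medians of the 10 were 0.408 and 0.705, against 0.963 and 0.988 over the 13274 genes. These sets are unlike, since only 5 of the 10 are among the 13274 and the other 5 averaged under 1 RPKM. For the 5 that are among them the median plain ratios were 0.810 and 0.932, in both libraries that of GCLC.

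The test across all genes was limma on log2(RPKM + 1), with Benjamini-Hochberg adjustment over the 13274 genes and a threshold of 0.05. It covered 5 of the 10 genes (NQO1, GCLC, TXNRD1, SRXN1 and PIR), and none of them passed, where 0.00753% of all genes tested did. MYBL2, the target of the siRNA, did not pass either, with a limma log2 change of -2.03 (SE 0.30, adjusted p 0.153). At an unadjusted p under 0.05 stood 1 of these 5, NQO1, where 4.71% of all genes tested did. The other 5 had a mean under 1 RPKM, and all 5 were lower in both siMYBL2 libraries, where 43.3% of the 9275 rows under 1 RPKM with at least 10 reads were. AKR1C3 missed that minimum narrowly with a mean of 0.999 RPKM, followed by GCLM at 0.630 RPKM, and the lowest was AKR1C1 at 0.0604 RPKM. With 1 siNC library the test takes its spread from the siMYBL2 pair alone, and the siNC library is assumed to vary like them. Below, ratios between libraries carry 95% exact conditional binomial intervals on the reads, which cover counting error only and compare libraries, not treatments.

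**Figure D1:**
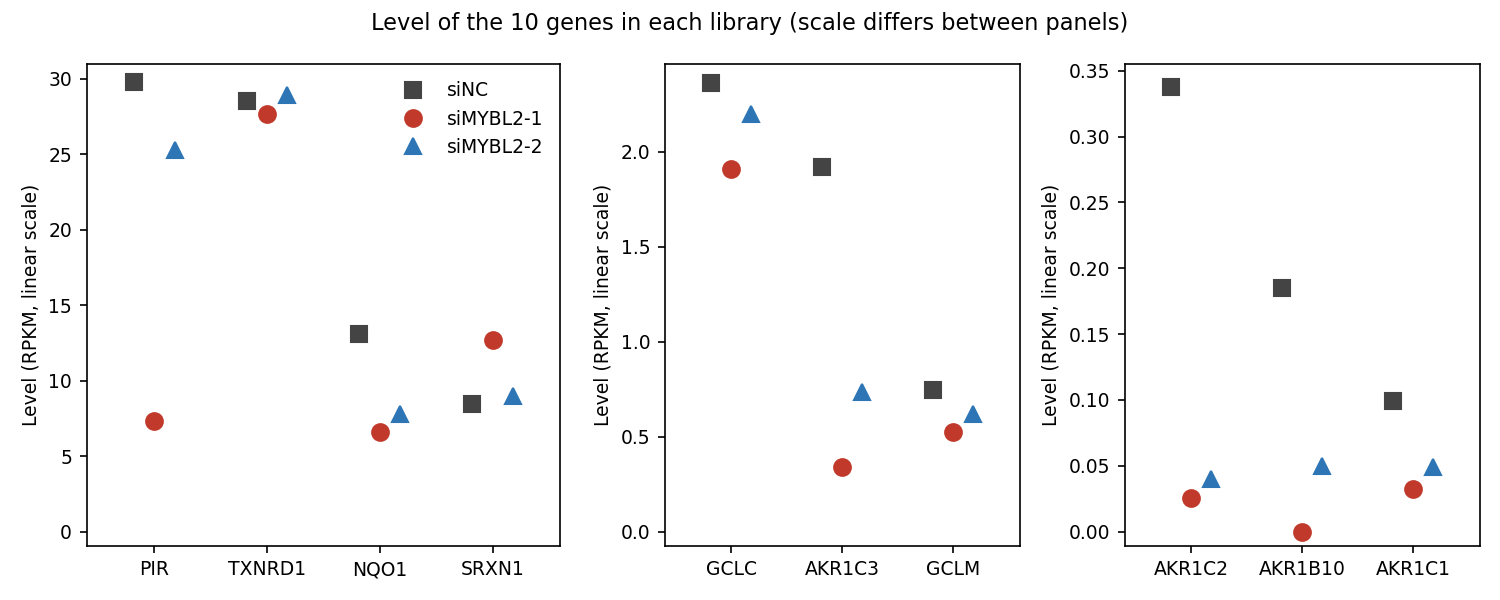
Level of each of the 10 genes in RPKM (linear vertical axes, which differ between the 3 panels) in siNC (square), siMYBL2-1 (circle) and siMYBL2-2 (triangle), 1 point per library. For PIR the siMYBL2-1 library stands apart at 7.31 RPKM, for the aldo-keto reductases both siMYBL2 libraries lie under siNC, and for TXNRD1 the 3 libraries lie together between 27.7 and 28.9 RPKM.

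NQO1, the quinone reductase that takes quinones to hydroquinones with NADH or NADPH and a standard readout of NRF2, is a minus-strand gene of chromosome 16 (69706996 to 69726951, hg38). It gave 13.1 RPKM in siNC (1710 reads), then 6.59 RPKM in siMYBL2-1 (897 reads) and 7.82 RPKM in siMYBL2-2 (1175 reads). Both siMYBL2 libraries were lower than siNC, and they differed from each other by less than either did from siNC. The ratio to siNC was 0.505 (95% counting interval 0.465 to 0.548) in siMYBL2-1 and 0.599 (0.556 to 0.646) in siMYBL2-2. The mean of the siMYBL2 group was 7.21 ± 0.868 RPKM (SD, n = 2). limma gave a log2 change of -0.78 (SE 0.29) with an unadjusted p of 0.0225 and an adjusted p of 0.921, so the difference did not pass. On the log2(RPKM + 1) scale 2.79% of the genes tested lay as far below siNC as NQO1 or further in siMYBL2-1, and 3.04% in siMYBL2-2. That scale compresses low genes. By plain ratio 641 of the 13274 genes tested were at least 2-fold lower in siMYBL2-1, where NQO1 was at 0.505. For NQO1 82.3% of exonic bases are its own. The rest are shared with CTD-2033A16.1 on the opposite strand, which was at 2.72, 1.58 and 1.09 RPKM, and since no strand setting is given, reads from there may belong to either gene.

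PIR encodes pirin, an iron-binding nuclear protein of the cupin family that is an established NRF2 target, and lies on the minus strand of the X chromosome (15384799 to 15493564, hg38). It gave 29.8 RPKM in siNC (3011 reads), then 7.31 RPKM in siMYBL2-1 (768 reads) and 25.3 RPKM in siMYBL2-2 (2938 reads). The siMYBL2-1 library was far below the other two, which lay near each other. Relative to siNC the siMYBL2-1 level was 4.07-fold lower (95% counting interval 3.76 to 4.41), while that of siMYBL2-2 was 1.18-fold lower (1.12 to 1.24). Between the siMYBL2 libraries the gap was 3.46-fold (3.20 to 3.76). Ranks among the 13274 genes tested were taken on the log2(RPKM + 1) scale, not on these plain folds. The difference of PIR from siNC was the 24th lowest in siMYBL2-1 and rank 3037 from the lowest in siMYBL2-2. Its difference of siMYBL2-1 from siMYBL2-2 was rank 8 from the lowest. The limma log2 change of the group was -1.06 (SE 0.53, adjusted p 0.999), with a group mean of 16.3 ± 12.7 RPKM (SD, n = 2), so the siMYBL2 libraries differed more from each other than their mean did from siNC. No other row shares an exonic base with PIR. MYBL2 was at 21.8% of siNC in siMYBL2-1 and at 26.7% in siMYBL2-2.

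The promoters of PIR, GCLM and TXNRD1 hold the core letters of the antioxidant response element, TGACNNNGC, read on either strand, within the RefSeq windows of 250 bases before to 50 after the start (GRCh38.p14). They are shown because they are the members with this motif in the window, and their ratios to siNC differ. Capitals mark the matches, and all sequences run 5′ to 3′ on the strand of the gene. The windows are chrX:15493284-15493583 (minus strand) for PIR, chr1:93909381-93909680 (minus strand) for GCLM, and chr12:104215529-104215828 and chr12:104286782-104287081 (plus strand) for the upstream and downstream starts of TXNRD1.
PIR: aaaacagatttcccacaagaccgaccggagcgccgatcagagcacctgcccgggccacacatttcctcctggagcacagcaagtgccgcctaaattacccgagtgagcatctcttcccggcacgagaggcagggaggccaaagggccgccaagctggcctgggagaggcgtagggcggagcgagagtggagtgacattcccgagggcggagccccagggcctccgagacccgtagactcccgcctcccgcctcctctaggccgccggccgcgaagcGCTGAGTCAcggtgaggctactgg
GCLM: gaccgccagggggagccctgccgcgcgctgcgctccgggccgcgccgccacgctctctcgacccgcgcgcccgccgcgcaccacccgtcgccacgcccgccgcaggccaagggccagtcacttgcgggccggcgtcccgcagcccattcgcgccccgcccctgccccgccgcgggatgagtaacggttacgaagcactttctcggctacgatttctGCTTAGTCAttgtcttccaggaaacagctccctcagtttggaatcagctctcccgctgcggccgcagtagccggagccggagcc
TXNRD1, upstream start: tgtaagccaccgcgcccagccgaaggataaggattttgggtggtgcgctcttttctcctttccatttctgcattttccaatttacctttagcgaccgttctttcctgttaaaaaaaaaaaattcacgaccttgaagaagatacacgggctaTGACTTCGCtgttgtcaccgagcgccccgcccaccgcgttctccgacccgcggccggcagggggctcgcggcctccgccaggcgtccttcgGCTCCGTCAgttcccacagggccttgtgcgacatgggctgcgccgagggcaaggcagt
TXNRD1, downstream start: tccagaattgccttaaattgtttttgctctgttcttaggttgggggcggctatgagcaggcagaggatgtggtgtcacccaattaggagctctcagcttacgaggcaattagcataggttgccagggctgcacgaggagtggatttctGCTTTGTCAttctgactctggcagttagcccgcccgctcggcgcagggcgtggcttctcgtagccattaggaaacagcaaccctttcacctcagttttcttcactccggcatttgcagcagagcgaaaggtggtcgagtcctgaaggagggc

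Counting the first transcribed base as 1, the match in PIR covers positions 27 to 35, that in GCLM positions -34 to -26, and those in TXNRD1 positions -99 to -91 and -8 to 1 at the upstream start and -102 to -94 at the downstream start. The PIR match contains TGAGTCA (positions 29 to 35), which is also the letters bound by AP-1 factors. RefSeq windows were found for 9 of the 10 genes (11 windows), and 4 of the 11 windows, of 3 genes, had TGACNNNGC, where 13.3% of all 35116 windows did. TGANTCA, the AP-1 type of motif, was in 1 of the 11 (PIR) and in 7.71% of all windows. Motifs of the complex in which MYBL2 acts and of MYB proteins were searched the same way. TTTGAA, a form of the cell cycle homology region, was in 1 of the 11 windows (AKR1C3) and in 15.2% of all windows. AACGG, a core of MYB sites, was in 5 of the 11 (NQO1, GCLM, TXNRD1, AKR1C1 and AKR1C2) and in 19.7% of all windows, which are not matched to these promoters in base composition. The AKR1C1 and AKR1C2 windows are near copies (288 of 292 aligned bases identical) with AACGG in the same stretch, so these matches are not separate finds. A match is a string of letters and not a measured site. PIR and TXNRD1, both with TGACNNNGC, were at 0.246 and 0.972 times siNC in siMYBL2-1 and at 0.851 and 1.01 in siMYBL2-2. Any link between these letters and the ratios was not tested.

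AKR1C1, AKR1C2 and AKR1C3 are NADPH-dependent reductases of steroids, prostaglandins and lipid aldehydes, encoded in a cluster on chromosome 10. AKR1C1 is known for inactivating progesterone, AKR1C2 for inactivating dihydrotestosterone, and AKR1C3 for making testosterone from androstenedione. AKR1C3 (plus strand, 5035354 to 5107686, hg38) was the best expressed of them, with 1.92 RPKM (350 reads) in siNC, against 0.343 RPKM in siMYBL2-1 (65 reads) and 0.736 RPKM in siMYBL2-2 (154 reads). Both siMYBL2 libraries were below siNC, siMYBL2-1 the further. The fold below siNC was 5.59 in siMYBL2-1 (95% counting interval 4.28 to 7.41), against 2.61 in siMYBL2-2 (2.15 to 3.17). The siMYBL2 libraries differed from each other too, by 2.15-fold (1.6 to 2.91).

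AKR1C2 (minus strand, 4987400 to 5018031) gave 0.338 RPKM in siNC (88 reads), then 0.0259 RPKM in siMYBL2-1 (7 reads) and 0.0402 RPKM in siMYBL2-2 (12 reads). Few reads remained in either siMYBL2 library, and its ratios to siNC were the lowest of the 10 genes apart from AKR1B10 in siMYBL2-1, where no read was counted. The ratios were 0.0766 (95% counting interval 0.0299 to 0.165) and 0.119 (0.0592 to 0.218). AKR1C1 (plus strand, 4963253 to 4983283) gave 0.0992 RPKM in siNC (35 reads), then 0.0327 RPKM in siMYBL2-1 (12 reads) and 0.0494 RPKM in siMYBL2-2 (20 reads). Its ratios were 0.330 (0.156 to 0.651) and 0.498 (0.273 to 0.887), so the counting intervals lay under 1 in both libraries. Between siMYBL2-1 and siMYBL2-2 neither AKR1C1 nor AKR1C2 differed beyond counting error, with ratios of 0.663 (0.295 to 1.42) and 0.644 (0.215 to 1.77). AKR1C4, the liver member of the cluster, had no read in any library.

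AKR1C1 and AKR1C2 are closely similar copies, and reads of stretches that they share may have been given to either, to both or to neither, since the read counter is not given. Of the distinct stretches of 50 bases in the GENCODE release 29 transcripts of AKR1C2, 38.1% also occur in those of AKR1C1, and of those of AKR1C1 28.3% occur in AKR1C2. For AKR1C3 4.53% of such stretches occur in any other gene. At 100 bases the shares were 22.1% for AKR1C2, 16.5% for AKR1C1 and 1.75% for AKR1C3. Summed, AKR1C1 and AKR1C2 had 123, 19 and 32 reads, a ratio to siNC of 0.149 (95% counting interval 0.0866 to 0.242) and 0.227 (0.149 to 0.337). A lower sum in both siMYBL2 libraries does not depend on how reads were split between these copies, although the values of each gene alone do.

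The copies extend into the promoters, which are shown because AKR1C1 and AKR1C2 were both lower in both siMYBL2 libraries. In an alignment of the RefSeq windows at chr10:4963165-4963464 (plus strand, AKR1C1) and chr10:5003808-5004107 (minus strand, AKR1C2), 288 of 292 aligned bases were identical, 4 were mismatched and 4 further bases inside AKR1C1 had no partner. Capitals mark the mismatched and unpaired bases.
AKR1C1: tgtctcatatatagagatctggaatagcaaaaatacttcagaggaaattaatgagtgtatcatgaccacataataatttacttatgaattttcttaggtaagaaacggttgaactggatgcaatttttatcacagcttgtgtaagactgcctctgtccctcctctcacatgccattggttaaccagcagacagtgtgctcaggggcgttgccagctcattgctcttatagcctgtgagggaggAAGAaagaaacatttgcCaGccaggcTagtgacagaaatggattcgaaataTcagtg
AKR1C2: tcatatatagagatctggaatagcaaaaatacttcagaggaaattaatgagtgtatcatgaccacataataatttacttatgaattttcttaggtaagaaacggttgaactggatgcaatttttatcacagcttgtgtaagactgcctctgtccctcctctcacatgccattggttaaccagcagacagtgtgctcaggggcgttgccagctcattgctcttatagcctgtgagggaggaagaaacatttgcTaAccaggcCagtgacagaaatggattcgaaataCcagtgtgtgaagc

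Against the AKR1C3 windows, which begin at 5048531 and 5094164, the AKR1C1 window was 78.0% and 79.9% identical over the aligned bases. None of the AKR1C windows held TGACNNNGC. The windows say nothing of elements further upstream.

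AKR1B10, a reductase of retinal and lipid aldehydes that is low in most normal tissues and raised in several carcinomas, lies on the plus strand of chromosome 7 (134527592 to 134541408). It gave 0.185 RPKM in siNC (13 reads), then 0 RPKM in siMYBL2-1 (0 reads) and 0.0497 RPKM in siMYBL2-2 (4 reads). Against the floor of 3 reads, which is 0.0411 RPKM in siMYBL2-1, the level was at least 4.5-fold lower there than in siNC, a bound that takes the 13 siNC reads as exact. The 95% counting interval of the ratio, which allows for error in both libraries, reached up to 0.316. In siMYBL2-2 it was 0.268 times siNC (95% counting interval 0.0637 to 0.868). With 13 reads in siNC these values are the least precise of the 10.

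Counted by size, 0 of the 10 genes were at least 2-fold lower in both libraries on the log2(RPKM + 1) scale, where 0.407% of the genes tested were, and 0 were at least 2-fold higher (0.211%). That scale compresses differences of low genes. As plain ratios, counted after the values had been seen, 4 of the 10 were at least 2-fold lower in both. These were the 4 aldo-keto reductases, AKR1C1 only just (0.498 in siMYBL2-2). In siMYBL2-2 the counting intervals of AKR1C1 and AKR1B10 reached 0.887 and 0.868, so for these a fall of 2-fold is not beyond counting error. AKR1C1 and AKR1C2 may also share reads, so they may not be separate finds. The share among the 13274 genes tested was 0.919%. None of the 4 is among the genes tested, and among 9275 rows under 1 RPKM with at least 10 reads in all it was 8.29%.

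**Figure D2:**
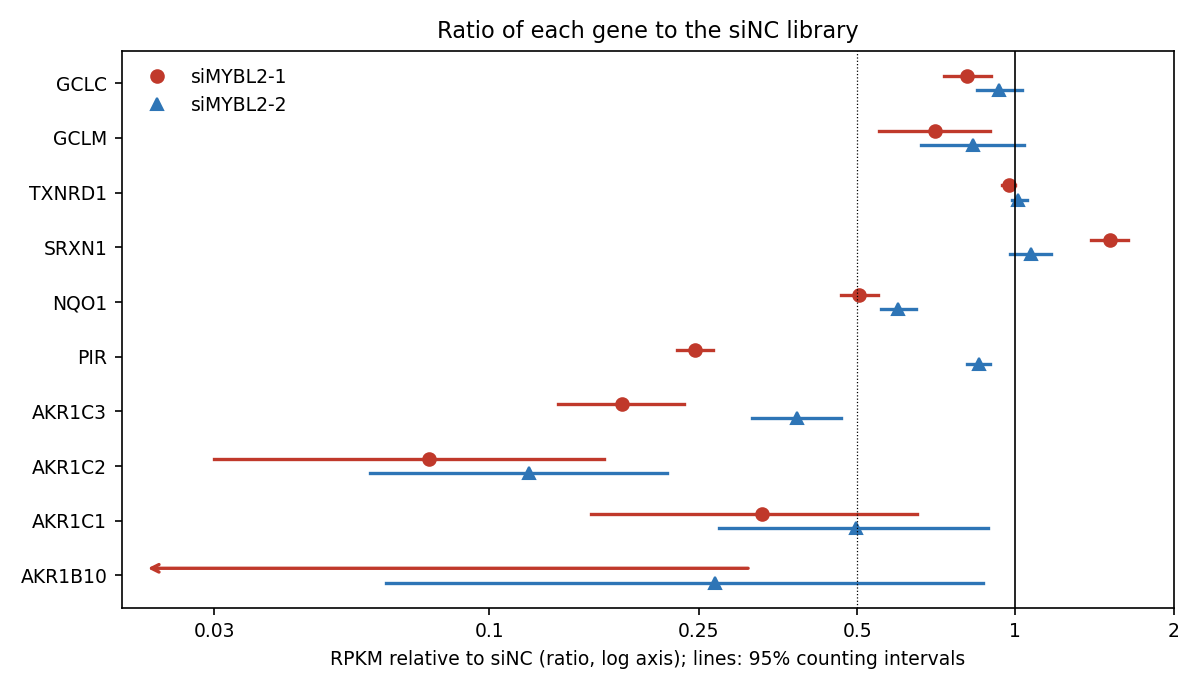
RPKM of each gene relative to siNC (log axis) in siMYBL2-1 (circle) and siMYBL2-2 (triangle), with 95% counting intervals as lines, a solid line at a ratio of 1 and a dotted line at 0.5. The arrow of AKR1B10 starts at its upper limit of 0.316 and runs to 0, since siMYBL2-1 had no read. The ratios of the 4 aldo-keto reductases lie at or under 0.498, with intervals in siMYBL2-2 that reach 0.887 for AKR1C1 and 0.868 for AKR1B10. The intervals of GCLC and GCLM in siMYBL2-2 reach 1.

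Glutathione is made by glutamate-cysteine ligase, which joins glutamate and cysteine and limits the rate of synthesis. GCLC encodes its catalytic and GCLM its modifier subunit. GCLC (minus strand of chromosome 6, 53497341 to 53616970) gave 2.36 RPKM in siNC (803 reads), then 1.91 RPKM in siMYBL2-1 (676 reads) and 2.20 RPKM in siMYBL2-2 (858 reads). GCLM (minus strand of chromosome 1, 93885205 to 93909456) was at 0.747 RPKM (163 reads), 0.525 RPKM (119 reads) and 0.619 RPKM (155 reads) in the same order. Both subunits were lowest in siMYBL2-1 and highest in siNC. The ratio of GCLC to siNC was 0.810 (95% counting interval 0.731 to 0.899) in siMYBL2-1 and 0.932 (0.845 to 1.03) in siMYBL2-2, and that of GCLM was 0.703 (0.550 to 0.896) and 0.829 (0.661 to 1.04), so in siMYBL2-2 neither differed from siNC beyond counting error. The ratio of GCLC to GCLM in RPKM was 3.16, 3.64 and 3.55. The limma log2 change of GCLC was -0.14 (SE 0.28, adjusted p 0.999).

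TXNRD1, the cytosolic selenoprotein that reduces thioredoxin with NADPH, lies on the plus strand of chromosome 12 (104215779 to 104350305). It gave 28.5 RPKM in siNC (7686 reads), then 27.7 RPKM in siMYBL2-1 (7764 reads) and 28.9 RPKM in siMYBL2-2 (8944 reads). The 3 libraries lay within a narrow range, with siNC between the others. The ratios to siNC were 0.972 (95% counting interval 0.942 to 1.00) and 1.01 (0.984 to 1.05), and the limma log2 change was -0.01 (SE 0.29, adjusted p 1.00). TXNRD1 had the most reads of the 10 genes, and its counting intervals were the narrowest relative to the ratio.

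SRXN1 encodes sulfiredoxin, which restores overoxidised peroxiredoxins. A minus-strand gene of chromosome 20 (646615 to 653370), it gave 8.43 RPKM in siNC (916 reads), then 12.7 RPKM in siMYBL2-1 (1437 reads) and 9.0 RPKM in siMYBL2-2 (1121 reads). The siMYBL2-1 library was the highest and siMYBL2-2 lay close to siNC. The ratio to siNC was 1.51 (95% counting interval 1.39 to 1.64) in siMYBL2-1 and 1.07 (0.977 to 1.17) in siMYBL2-2, and the limma log2 change was 0.31 (SE 0.31, adjusted p 0.999). Only 15.0% of the exonic bases of SRXN1 are its own, because a clone-named row on the same strand covers the rest. That row was at 7.46, 11.2 and 7.89 RPKM (815, 1267 and 989 reads). Its order is that of SRXN1, but the same reads may have been counted in both rows, so this is no separate finding. Reads from the overlap cannot be told apart, and the values of SRXN1 may belong to either row.

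**Figure D3:**
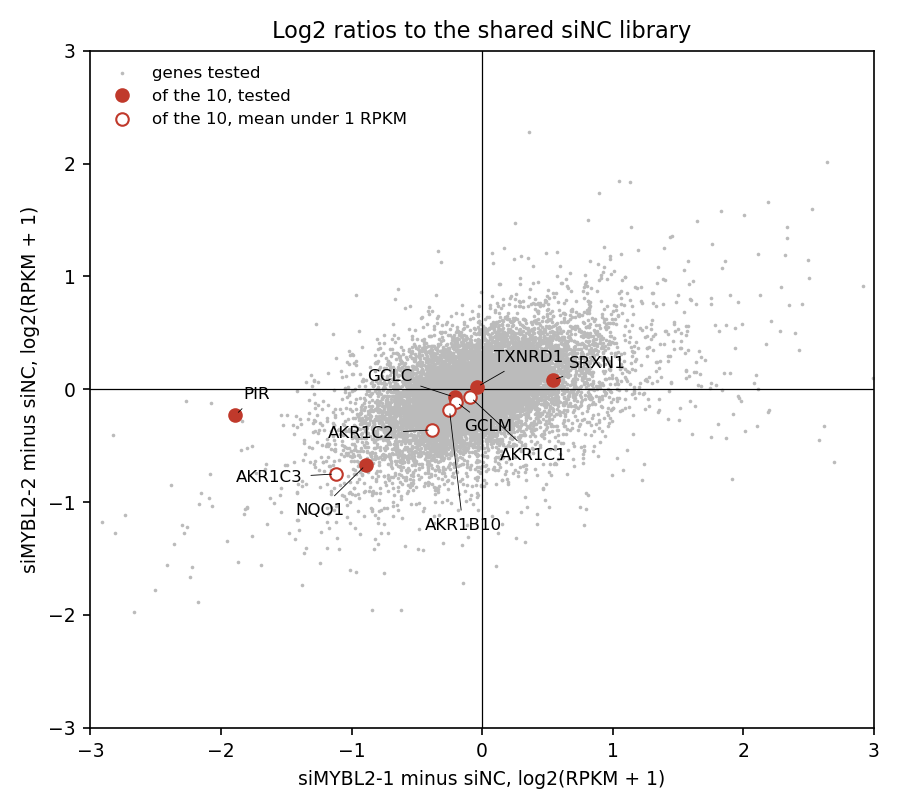
Difference from siNC on the log2(RPKM + 1) scale in siMYBL2-1 (horizontal) and siMYBL2-2 (vertical) for the 13274 genes tested (grey) and the 10 genes (red; open where the mean was under 1 RPKM), with 6 grey genes beyond the axes. Both axes share the siNC library; PIR lies at -1.89 and -0.23, NQO1 at -0.89 and -0.67, AKR1C3 at -1.12 and -0.75.

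In order of level per length in siNC, PIR (29.8 RPKM) and TXNRD1 (28.5 RPKM) came first, then NQO1, SRXN1, GCLC, AKR1C3, GCLM, AKR1C2, AKR1B10 and AKR1C1. In siMYBL2-1 the order began with TXNRD1, SRXN1, PIR and NQO1, so that PIR moved from place 1 to place 3, and in siMYBL2-2 with TXNRD1, PIR, SRXN1 and NQO1. SRXN1 thus stood above NQO1 in both siMYBL2 libraries and below it in siNC. GCLC was at place 5 in every library, and AKR1C3 and GCLM exchanged places 6 and 7 in siMYBL2-1. Each of the 3 lowest genes had at most 20 reads in a siMYBL2 library, too few to resolve their order there. The siMYBL2 group means of PIR (16.3 ± 12.7 RPKM, SD, n = 2) and its neighbours TXNRD1 (28.3 ± 0.846), SRXN1 (10.9 ± 2.64) and NQO1 (7.21 ± 0.868) do not separate PIR from any of these 3 by more than its own spread.

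The genes that set NRF2 activity were measured beside these targets, in a list of 12, all averaging 1 RPKM or more. None passed limma (smallest adjusted p 0.999; 0 at an unadjusted p under 0.05), 5 were lower in both siMYBL2 libraries, 3 higher in both, and 4 differed in sign, and the median log2 difference was 0.08 in siMYBL2-1 and -0.07 in siMYBL2-2. Over all genes tested 36.4% were lower in both and 29.7% higher in both, and 4.71% had an unadjusted limma p under 0.05. NFE2L2, the gene of NRF2, was at 11.9, 9.08 and 10.7 RPKM, and its repressor KEAP1 at 7.25, 6.68 and 6.36 RPKM. BACH1, a repressor that competes for the same elements, was at 3.81, 3.69 and 3.76 RPKM. The small MAF genes MAFF and MAFK, partners of NRF2 in DNA binding, stood at 4.45, 13 and 4.13 RPKM (MAFF) and 3.53, 9.12 and 3.43 RPKM (MAFK). In both of them siMYBL2-1 was high and the other libraries lay together, at adjusted p 0.999 each. RBX1, the RING subunit of the KEAP1 ligase, was at 3.77, 4.32 and 7.02 RPKM. Other rows share exonic bases with NFE2L2, MAFK and BACH1, of which 79.1%, 81.9% and 95.5% are their own.

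Other NRF2 targets formed a list of 28 genes, 18 of them tested. Of the 18, 0 passed limma (smallest adjusted p 0.987; 1 at an unadjusted p under 0.05), 12 were lower in both siMYBL2 libraries, 3 higher in both, and 3 differed in sign, with a median log2 difference of -0.12 in siMYBL2-1 and -0.22 in siMYBL2-2. The shares over all genes tested were 36.4% lower in both, 29.7% higher in both and 4.71% at an unadjusted limma p under 0.05. The difference of this list from those shares was not tested. TRIM16, an E3 ligase, was at 4.92, 14.9 and 6.26 RPKM, higher in siMYBL2-1 than in the others. Its exonic bases were 71.3% its own. UGT1A6, a glucuronosyltransferase, was at 2.16, 0.600 and 1.25 RPKM (unadjusted p 0.0372), but only 35.6% of its exonic bases are its own, since the UGT1A genes share exons. ABCC3, an exporter of conjugates, was at 2.33, 1.61 and 0.820 RPKM. Of the 10 genes of this list under 1 RPKM, all with at least 10 reads, 6 were lower in both. By plain ratio 1 (ALDH3A1, with 20, 8 and 4 reads) was at least 2-fold lower in both. The shares among all 9275 such rows were 43.3% and 8.29%.

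Beside the 4 aldo-keto reductases above, 12 further genes of the family, AKR1C4 among them, were listed, of which 3 were tested and 0 passed (smallest adjusted p 0.999; 0 at an unadjusted p under 0.05). AKR1B1, aldose reductase and a relative of AKR1B10, was at 11.4, 10.3 and 10.4 RPKM. AKR1A1, aldehyde reductase, was at 8.20, 7.21 and 6.74 RPKM and AKR7A2 at 3.97, 4.28 and 4.80 RPKM. These 3 lay within 0.823 to 1.21 times siNC in both libraries, whereas AKR1C1, AKR1C2, AKR1C3 and AKR1B10 lay between 0 and 0.498. The difference between the 2 sets was not tested, and the level of expression differs between them. Of 5 others under 1 RPKM with at least 10 reads in all, 4 were lower in both. KCNAB2 (73, 16 and 40 reads) and AKR7A3 (only 16, 2 and 5 reads) were at least 2-fold lower in both by plain ratio. Among all 9275 such rows 43.3% were lower in both and 8.29% at least 2-fold lower in both. A shared fall of the family was not tested.

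Glutathione metabolism was represented by 32 genes, of which 19 were tested and 0 passed (smallest adjusted p 0.921; 1 at an unadjusted p under 0.05), with 7 lower in both siMYBL2 libraries, 9 higher in both and 3 of differing sign. Among all genes tested 36.4% were lower in both, 29.7% higher in both and 4.71% at an unadjusted limma p under 0.05. MGST2, a microsomal glutathione transferase, was at 1.82, 0.556 and 0.803 RPKM (unadjusted limma p 0.0231). GPX7 and GPX8, glutathione peroxidases of the endoplasmic reticulum, went different ways: GPX7 stood at 0.734, 1.22 and 1.9 RPKM, GPX8 at 4.14, 2.60 and 2.52 RPKM. GSTO1, an omega class transferase, was at 6.82, 7.13 and 10.3 RPKM. Of 10 genes of this list under 1 RPKM with at least 10 reads in all, 4 were lower in both and 1 was higher in both. By plain ratio 0 were at least 2-fold lower in both. Among all 9275 such rows 43.3% were lower in both and 8.29% at least 2-fold lower.

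The thioredoxin, peroxiredoxin, superoxide dismutase and catalase list held 24 genes, of which 21 were tested and 0 passed (smallest adjusted p 0.999; 0 at an unadjusted p under 0.05), with 8 lower in both, 3 higher in both and 10 of differing sign. For all genes tested the shares were 36.4% lower in both and 29.7% higher in both, with 4.71% at an unadjusted limma p under 0.05. PRDX5, a peroxiredoxin, was at 220, 122 and 161 RPKM, highest in siNC. SOD2, the mitochondrial superoxide dismutase, was at 8.68, 7.58 and 4.09 RPKM, lowest in siMYBL2-2. CAT, catalase, was at 7.76, 3.39 and 8.59 RPKM, lowest in siMYBL2-1. Of 2 genes of this list under 1 RPKM with at least 10 reads in all, 1 was lower in both. By plain ratio 0 were at least 2-fold lower in both. The shares among all 9275 such rows were 43.3% and 8.29%.

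**Figure D4:**
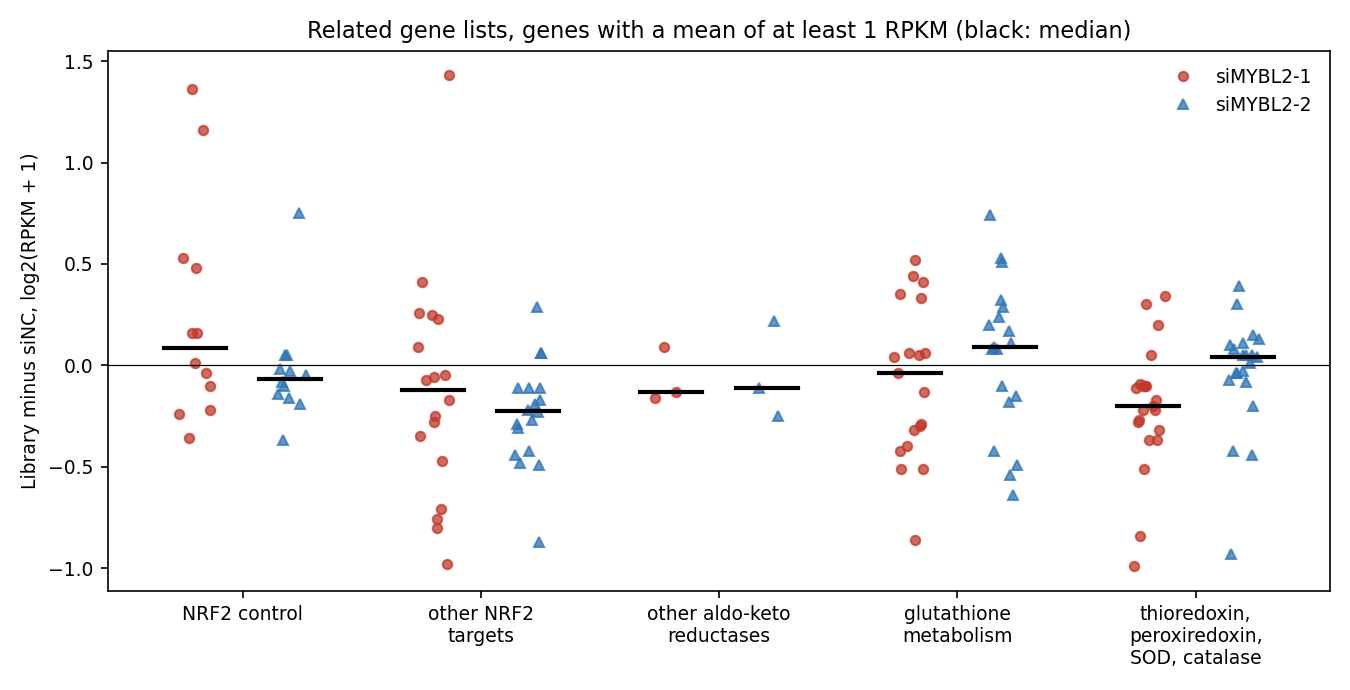
Difference from siNC on the log2(RPKM + 1) scale for the tested genes of 5 related lists (1 point per gene and library; circles siMYBL2-1, triangles siMYBL2-2; black bars are medians). The medians lie between -0.22 and 0.09, and the highest points of the first 2 lists in siMYBL2-1 are MAFF, MAFK and TRIM16.

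Likeness of pattern was measured as the distance between the pairs of log2 differences from siNC, over 3 libraries, among 6349 other genes averaging 5 RPKM or more. The median of the 5 genes tested (-0.21 and -0.07) lay nearest to BRD3, ARL2, TATDN1, PSMA6 and CAST (distances 0.00891 to 0.0155), and 284 genes lay within 0.1 of it, so with 3 libraries this pattern is shared by many genes. For PIR, a choice made after its values were seen, 0 genes lay within 0.1, and the nearest were SPINK5 (12.7, 2.26 and 11.6 RPKM), CLGN (14.2, 3.50 and 9.76 RPKM), RNU7-75P, HMGN5 and IFI44, at distances of 0.213 to 0.447. For NQO1, chosen likewise, 13 genes lay within 0.1, the nearest being CENPA (11.1, 5.72 and 6.60 RPKM), RP11-27M24.1, RP11-295K3.1, FAM64A and HMGN2P5.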

How the data were processed

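Poly(A) RNA libraries of 5637 cells (1 siNC, 2 siMYBL2) were used. The authors deposited a table of RPKM values with the exonic length of each row. The submitters' processing notes name cutadapt 1.9, HISAT2 2.0.4 and StringTie 1.3.4d and hg38. Counter and annotation were not given in the sources used here, nor was a strand setting. Multiplied by length, 100% of the values came out whole within 0.001 reads after division by what 1 read is worth in the library, so reads could be recovered. At these depths 3 reads on 1 kilobase correspond to 0.0650 to 0.0745 RPKM.

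limma-trend (limma 3.58.1, R 4.3.3) was fitted on log2(RPKM + 1) for genes averaging 1 RPKM or more, siMYBL2 against siNC, with 1 residual degree of freedom (10.2 after moderation), and was tested on simulated data. limma-voom on the recovered reads was an alternative. Counting intervals came from scipy 1.17.1, alignments from biopython 1.88. The pseudocount understates changes of low genes.

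The 10 genes, 5 companion lists and tests were chosen with earlier results of these data known. Named companions were the 3 genes of each list with the largest mean log2 change, the gene differing most between the siMYBL2 libraries, and NFE2L2, KEAP1 and BACH1; KCNAB2, AKR7A3, ALDH3A1, CD68 and COL1A1 were named after their values were seen. The genes most alike were the 5 nearest by distance.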

Additional observations from a re-analysis of the deposited data

How the results depend on the processing

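None of the 10 genes passed limma under any alternative that could be fitted. Adjusted p lay between 0.531 and 1.00 for NQO1, between 0.920 and 1.00 for PIR, GCLC and SRXN1, and between 0.998 and 1.00 for TXNRD1. GCLM, AKR1C1, AKR1C2, AKR1C3 and AKR1B10 could be tested only without the filter on low values, at adjusted p of 0.920, 0.527, 0.101, 0.721 and 0.567. TXNRD1, at -0.01, was at 0.03 with the median ratio scaled to 1, and between -0.04 and 0.02 when 1 siMYBL2 library was left out, which leaves no test. The number of genes called higher over the whole table was 1, and it was 0 without the filter, with the filter at 5 RPKM, with the median ratio scaled to 1, with totals without mitochondrially encoded genes and with robust moderation. limma-voom called 3 higher and 7 lower, none of them among the 5 genes tested. The median log2 difference of the 10 genes was, in siMYBL2-1 and siMYBL2-2, -0.78 and -0.33 with a pseudocount of 0.1 RPKM and -1.29 and -0.50 as plain ratios, an alternative added after the data had been seen. In siMYBL2-1 it was -0.37 with a pseudocount of 0.5 RPKM and -0.46 over genes of at least 5 RPKM, and in siMYBL2-2 it was -0.07 over genes of at least 1 RPKM, also added later. The 8 genes lower in both became 3 with a mean of at least 1 RPKM and 2 with at least 5 RPKM, because fewer of the 10 then remain. With the median ratio scaled to 1, 2 genes were higher in both, the second being TXNRD1. The 0 genes at least 2-fold lower in both became 2 with a pseudocount of 0.1 RPKM and 4 as plain ratios. Leaving out a library leaves the medians of the other unchanged by construction and gives no count in both. No paired analysis was possible because siNC has 1 library and carries no replicate number.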
